A study of Mus musculus with 16 samples.

Results

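Among 16 MC38 tumors profiled by bulk RNA-seq, the 8 tumors of mice that received control IgG were chosen and split by their CD8 level, the sum of Cd8a and Cd8b1 in CPM, that is, counts scaled by the total of the library, with the 4 highest compared with the 4 lowest. Cd8a and Cd8b1 encode the chains of the CD8 co-receptor. The comparison asks which genes went along with T cell content in tumors that were never treated with anti-PD-1. All mice were female C57BL/6, aged 6 to 8 weeks at injection, with MC38 colon carcinoma cells placed under the skin of the right flank, and were enrolled with tumors of 150 to 250 mm3 on day 16. Control mice received 200 µg of IgG on days 16 and 20. The other 8 mice received 200 µg of an antibody against PD-1 (aPD-1) on the same days, and the labels call 6 of their tumors non-responders (aPD-1 NR) and 2 responders (aPD-1 R). Tumors were collected on day 21, with 1 poly(A) library per tumor and per mouse, so the spread is between tumors grown from the same cell line in 1 strain. Each library came from sections of the frozen part of a tumor. The study named responders by immunohistochemistry, from their CD8 T cells inside the tumor, so the aPD-1 NR group leaves out the tumors richest in CD8.

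CD8 T cells recognize peptides that MHC class I molecules present on other cells, kill through perforin and granzymes, and secrete interferon gamma. Interferon gamma raises MHC class I and class II genes, guanylate-binding proteins and the chemokines that draw further T cells. MC38 is a mouse colon carcinoma line with many mutations, widely used to study immune checkpoint antibodies.

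The CD8 level of the 8 IgG tumors had no break at the split, and replicates 8 and 1 lay well above the rest. In the CD8-high group it was 15.1, 9.47, 5.06 and 4.58 CPM, in replicates 8, 1, 2 and 3, and in the CD8-low group it was 4.44, 3.84, 3.38 and 2.62 CPM, in replicates 5, 6, 4 and 7. Values per tumor are given in this order throughout. The tumors just inside and just outside the split, replicates 3 and 5, stood at 156 and 152 counts. Their exact Poisson 95% intervals, 3.89 to 5.36 and 3.76 to 5.2 CPM, overlapped, and these intervals cover counting error only. Replicates 8 and 1 therefore carried most of the contrast. Cd8a was at 11.7, 7.29, 3.86 and 3.37 CPM of total counts in the CD8-high tumors and at 3.77, 2.84, 3.0 and 1.9 CPM in the CD8-low tumors. Taken alone on this scale, Cd8a overlapped between the groups, at replicates 3 and 5. Cd8b1 was at 3.46, 2.18, 1.2 and 1.2 CPM against 0.671, 0.999, 0.386 and 0.717 CPM and did not overlap. The groups were selected on these values, which are given as a description. The word high is relative: the 6 aPD-1 NR tumors lay at 5.64 to 13.9 CPM and the 2 aPD-1 R tumors at 92 and 93.6 CPM. In whole-tumor RNA, fewer T cells and less CD8 RNA per T cell cannot be told apart.

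**Figure D1:**
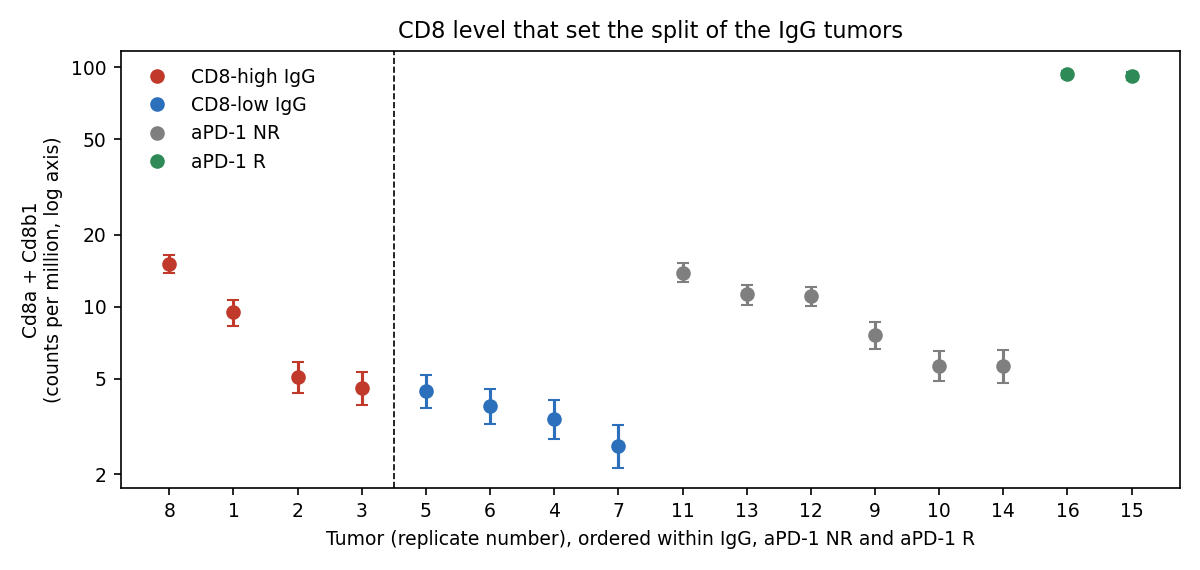
Sum of Cd8a and Cd8b1 in each of the 16 tumors, in CPM of total counts on a log axis, with exact Poisson 95% intervals as bars; tumors are ordered by level within IgG, aPD-1 NR and aPD-1 R, and the dashed line marks the split. Replicates 3 and 5 sit next to each other on either side of the line at 4.58 and 4.44 CPM, while the aPD-1 R tumors lie at 92 and 93.6 CPM.

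Some of the 8 libraries stood apart in ways that bear on the comparison. Total counts were 26603449 to 38031395 per IgG tumor and differed by less than the spread between tumors (exact permutation test, two-sided, n = 4 against 4, p = 0.343, where 0.0286 is the smallest p this design allows). Replicate 1, CD8-high, had 7.6% of its counts in mitochondrially encoded genes, where the other 7 tumors had 2.52 to 3.21% (difference of the group means in the same exact test, p = 0.114). Replicate 3, CD8-high, had 20.4% of its counts at the ribosomal RNA entry CT010467.1, against at most 0.489% elsewhere. These counts are part of the total that scaled the CD8 level and the ranking by Cd8a alone used below. The TMM method scales library sizes and corrects for a few genes that take many counts. With it the CD8 level was 5.84 CPM in replicate 3, 4.95 CPM in replicate 2 and 4.36 CPM in replicate 5. The split was the same, and replicate 2 in place of replicate 3 was then next to it. The ranking by Cd8a alone was made on total counts only, so its exchange of replicates 3 and 5 holds for that scale. Replicate 6, CD8-low, held skeletal muscle RNA: 11 muscle genes summed to 2731 CPM there and to 4.75 to 33.4 CPM in the others. The markers of colon epithelium were nearly absent. Krt8, Epcam and Vil1 were at most 1.37, 0.942 and 0.266 CPM in the 8 IgG tumors, Cdx2 had no counts in 7 of them, and Cdh1 lay at 3.91 to 5.73 CPM.

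**Figure D2:**
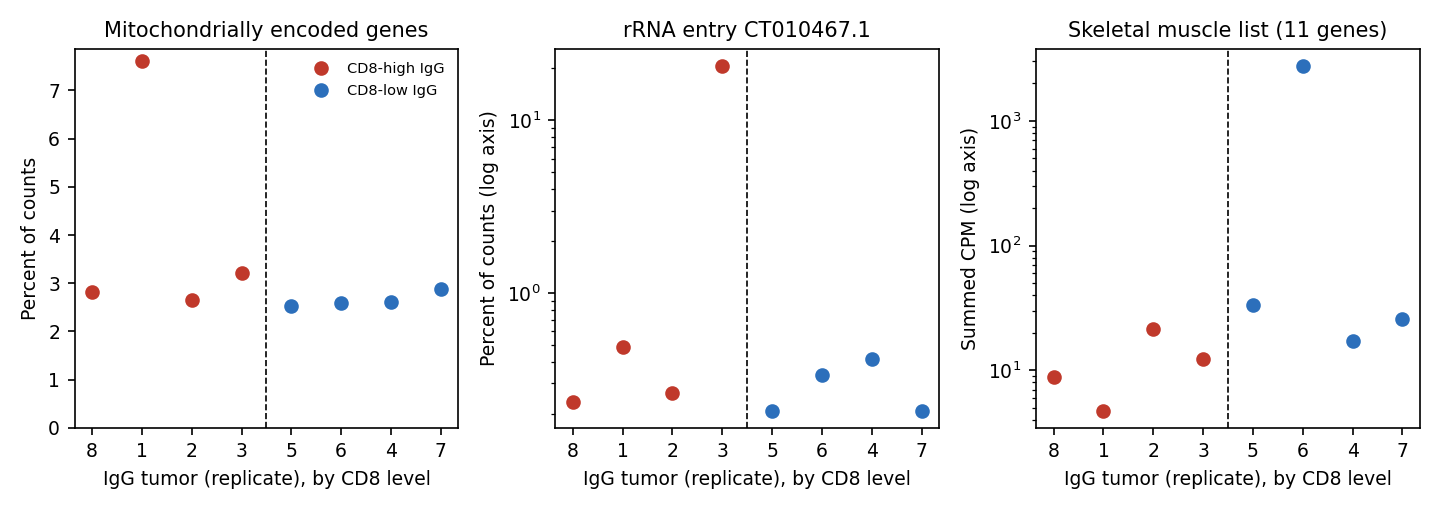
Measures of the 8 IgG libraries in order of CD8 level, with the dashed line at the split: percent of counts in mitochondrially encoded genes, percent of counts at the ribosomal RNA entry on a log axis, and summed CPM of 11 skeletal muscle genes on a log axis. Replicate 1 stands apart in the first panel at 7.6%, replicate 3 in the second at 20.4% and replicate 6 in the third at 2731 CPM.

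Across all genes, no difference between CD8-high and CD8-low tumors passed the test. Counts were scaled by the TMM method, which corrects for a few genes that take many counts, and the thresholds for a call were 0.05 on the adjusted p and 1 on the size of the log2 fold change. With edgeR's quasi-likelihood test 0 of 15738 genes were called (0%), and the smallest adjusted p was 0.575. At an unadjusted p below 0.05 stood 857 genes, 638 of them higher in CD8-high tumors (4.05% of genes tested) and 219 lower (1.39%). DESeq2 called 5 genes in the same tumors. On counts simulated with this design and spread, 53% of genes with a true 2-fold change and 89% of those with a 4-fold change were recovered. Recovery here means an adjusted p below 0.05 without the threshold on the fold change, so it overstates the recovery of calls. The changed genes were drawn from those above 1 CPM on average. The balance of directions rested on replicate 1: without it 434 genes were higher and 478 lower at the same unadjusted p. The differences below are therefore levels in 8 tumors, set beside the share of all genes that behave alike, and none is a called gene in the edgeR test. For a single gene, no overlap between the groups toward higher values was seen for 2.58% of all genes and toward lower values for 3.75%, and 53% of all genes had a log2 fold change above 0.

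The 6 MHC class II genes listed separated the groups. Their products present extracellular peptides to CD4 T cells on dendritic cells, macrophages and B cells, and on other cells after exposure to interferon gamma. All 6 genes of the list were higher in the CD8-high tumors, none of the 6 overlapped between the groups, and all 6 had an unadjusted p below 0.05. Of all genes, 2.58% did not overlap toward higher values and 4.05% were higher at such a p. The median log2 fold change was 0.88, where the median of all genes tested was 0.03. Summed over the 6 genes, the level was 1877, 1284, 998 and 1087 CPM in the CD8-high tumors and 752, 582, 831 and 619 CPM in the CD8-low tumors. Replicate 8, with the highest CD8 level, was also highest here, and the lowest CD8-high tumor, replicate 2, lay above the highest CD8-low tumor, replicate 4. As no gene of the 6 overlapped, leaving out 1 tumor could hardly turn a direction, and only the size of the difference is given. With each of the 8 tumors left out in turn, the median log2 fold change lay between 0.60 without replicate 8 and 0.97 without replicate 3. It was 1.04 without replicates 1 and 3.

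The genes of the classical heterodimers and the invariant chain differed most. H2-Eb1, a beta chain, lies at chr17:34305867-34316674 of GRCm38 and was at 389, 296, 206 and 202 CPM in the CD8-high tumors and 145, 109, 156 and 117 CPM in the CD8-low tumors. The group means were 273 ± 88.5 CPM (SD, n = 4) and 131 ± 22.2 CPM (SD, n = 4), which is 1.06 (standard error 0.23) as a log2 fold change, with an adjusted p of 0.575 from edgeR's quasi-likelihood test and 0.0326 from DESeq2. The levels followed the CD8 order within the CD8-high group and did not within the CD8-low group. Cd74, the invariant chain that occupies the groove until peptide is loaded, was at 571, 437, 293 and 379.6 CPM in the CD8-high tumors and 222, 173, 280.2 and 153 CPM in the CD8-low tumors. Its log2 fold change was 1.02 (standard error 0.25), and the lowest CD8-high tumor, replicate 2, was close to the highest CD8-low tumor, replicate 4. H2-Ab1, the other beta chain, was at 310.5, 156, 162 and 166 CPM in the CD8-high tumors and 117, 88.2, 120.2 and 85.9 CPM in the CD8-low tumors, a log2 fold change of 0.95 (standard error 0.24). Here replicate 8 stood well above the other CD8-high tumors, and the log2 fold change without it was 0.65. H2-Aa, an alpha chain at chr17:34282744-34287823, was at 509, 311, 258 and 263 CPM in the CD8-high tumors and 199, 151, 215 and 200.3 CPM in the CD8-low tumors and had a log2 difference of 0.81 (standard error 0.23).

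The genes of H2-DM, the chaperone that exchanges the invariant chain peptide for antigen, differed less. H2-DMa was at 33.8, 33.1, 26.3 and 23.6 CPM in the CD8-high tumors and 21.9, 20.0, 17.3 and 17.1 CPM in the CD8-low tumors, a log2 fold change of 0.62 (standard error 0.15). H2-DMb1 was at 63.5, 50.6, 52.6 and 51.9 CPM in the CD8-high tumors and 47.8, 40.5, 42.4 and 46.7 CPM in the CD8-low tumors, a log2 fold change of 0.30 (standard error 0.12), and its near copy H2-DMb2 can share reads with it, which RSEM divides. For H2-DMb1 the gap between the groups was narrow, with 50.6 CPM in replicate 1 against 47.8 CPM in replicate 5. Ciita, the transactivator that class II promoters depend on, was at 12.8, 5.81, 8.8 and 5.61 CPM in the CD8-high tumors and 6.08, 6.33, 5.04 and 4.39 CPM in the CD8-low tumors. The groups overlapped for Ciita, at replicates 1 and 3 of the CD8-high group, and the log2 fold change was 0.60 (standard error 0.28).

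**Figure D3:**
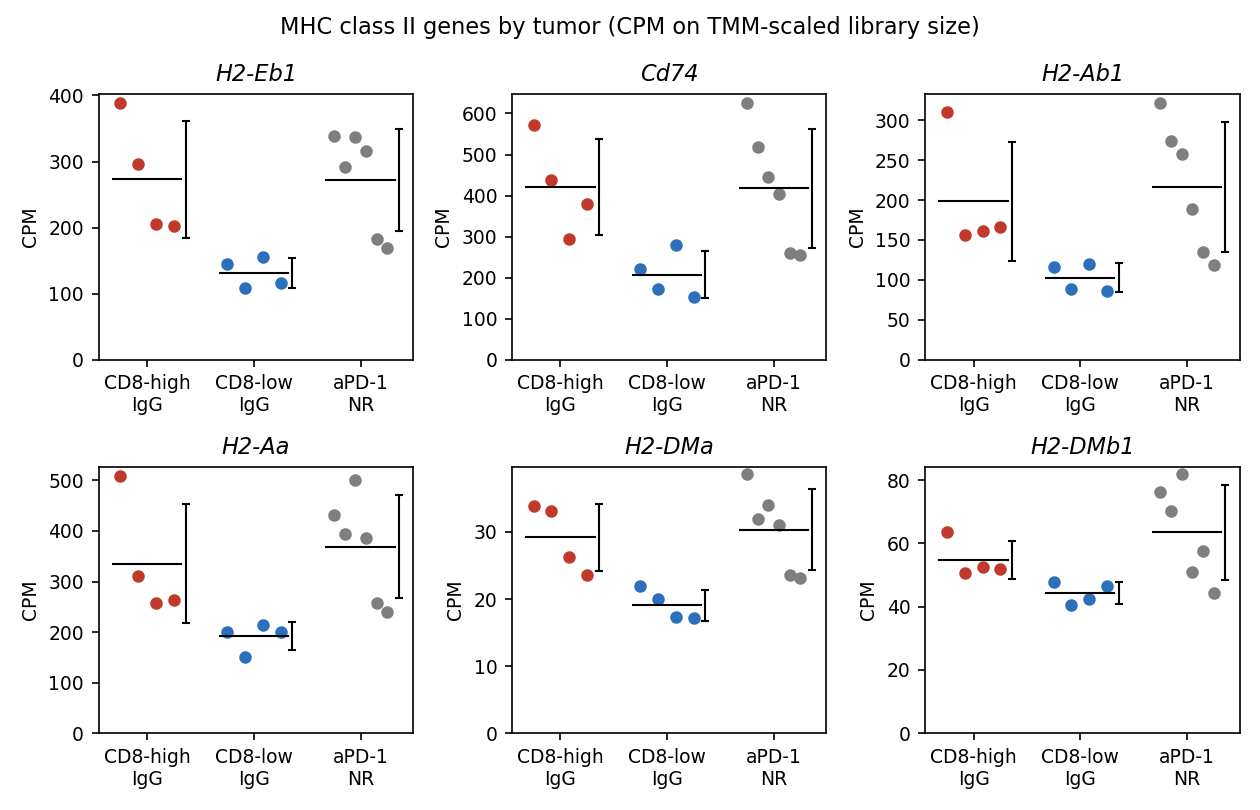
Level of the 6 MHC class II genes in each CD8-high IgG, CD8-low IgG and aPD-1 NR tumor, in CPM on the TMM-scaled library size, with the tumors of each group placed from left to right by falling CD8 level, the group mean as a line and its SD as a bar. In every panel the 4 CD8-high points lie above the 4 CD8-low points, and the 2 aPD-1 NR tumors with the lowest CD8 levels, at the right end of their group, are the 2 lowest of it for every gene but H2-DMb1.

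The promoters of these genes are shown because all 6 genes differed in the same direction. Of the 6 symbols, 4 were matched in RefSeq windows of 250 bases before to 50 bases after a gene start on GRCm38.p6, which hold 300 bases each, and H2-Ab1 was not among them. Class II promoters are known for an X box, bound by the RFX complex, and a Y box, bound by NF-Y, and capitals mark matches to a core of each: AACNGATG for the X box and TGATTGG, an inverted CCAAT, for the Y box. Both strands were searched, and matches of both motifs did not overlap in the windows printed. The window of H2-Eb1 is chr17:34305617-34305916 on the plus strand, that of H2-DMb1 is chr17:34152941-34153240 on the plus strand and that of H2-Aa is chr17:34287774-34288073 on the minus strand.
H2-Eb1: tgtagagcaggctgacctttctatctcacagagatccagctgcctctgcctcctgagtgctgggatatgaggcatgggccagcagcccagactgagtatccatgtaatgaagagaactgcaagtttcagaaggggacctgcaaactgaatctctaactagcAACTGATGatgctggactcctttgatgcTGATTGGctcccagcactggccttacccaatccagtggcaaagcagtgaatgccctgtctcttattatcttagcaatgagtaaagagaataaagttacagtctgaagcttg
H2-DMb1: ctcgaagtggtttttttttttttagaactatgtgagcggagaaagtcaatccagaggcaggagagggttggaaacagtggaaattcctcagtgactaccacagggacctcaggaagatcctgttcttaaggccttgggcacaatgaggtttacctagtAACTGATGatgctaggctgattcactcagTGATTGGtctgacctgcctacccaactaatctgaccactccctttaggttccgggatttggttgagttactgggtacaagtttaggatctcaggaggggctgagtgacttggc
H2-Aa: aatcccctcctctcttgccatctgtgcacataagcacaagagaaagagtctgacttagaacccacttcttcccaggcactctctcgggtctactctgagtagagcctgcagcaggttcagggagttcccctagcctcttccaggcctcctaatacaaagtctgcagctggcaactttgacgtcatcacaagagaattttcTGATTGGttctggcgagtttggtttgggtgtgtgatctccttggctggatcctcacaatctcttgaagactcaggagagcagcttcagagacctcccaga
H2-Eb1 and H2-DMb1 held both cores and H2-Aa held the Y box core alone. Of all 32851 windows, 7.82% held TGATTGG and 2.32% held AACNGATG. The 2 windows of H2-DMa held neither string. A match is a description of the letters in the window.

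The aPD-1 NR tumors, which the split did not use, gave a separate view of the same genes. Here each gene was fitted against the log2 CD8 level over the 6 tumors, so that a slope of 1 means that the gene doubled as CD8 doubled. No gene of 15981 was called by edgeR's quasi-likelihood test at an adjusted p below 0.05 (0%), with 805 positive and 363 negative slopes at an unadjusted p below 0.05 (5.04% and 2.27%), while DESeq2 called 98, 95 with a positive and 3 with a negative slope. Without replicate 10, whose CD8 level was among the lowest, the edgeR test called 542 genes, 332 with a positive and 210 with a negative slope. All 6 MHC class II genes had a positive slope and an unadjusted p below 0.05, where 5.04% of all genes had both. A positive slope at any p was found for 51.1% of all genes. H2-Ab1, at 189, 135, 322, 258, 274 and 118 CPM in replicates 9 to 14, had a slope of 1.05 (standard error 0.14), and Cd74, at 403, 260.2, 625, 446, 517 and 255 CPM, had a slope of 0.93 (standard error 0.15). Both were among the genes called by DESeq2. The slopes of H2-Eb1, H2-Aa, H2-DMb1 and H2-DMa were 0.71, 0.68, 0.54 and 0.51. With each NR tumor left out in turn the median slope of the 6 genes lay between 0.57 and 0.84, and no gene of the 6 turned negative. Replicates 9 and 14, with 6.0 and 5.73% of counts in mitochondrially encoded genes against 2.54 to 3.12% in the other NR tumors, lay in the middle and at the lower end of the CD8 order.

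Slopes in the 8 IgG tumors and the 6 NR tumors were also compared directly. The difference of slopes was called for 0 of 17412 genes by edgeR's quasi-likelihood test (0%), where 1534 (8.81%) stood below 0.05 unadjusted and the smallest adjusted p was 0.506. The unadjusted count rested on single tumors, with 6211 without replicate 8 and a smallest adjusted p of 0.0621, 4302 without replicate 10 and 371 without replicate 14. None of the 6 MHC class II genes had an unadjusted p below 0.05 for the difference. For H2-Eb1 the slope was 0.71 (standard error 0.10) in IgG tumors, and the difference from the NR slope, IgG minus NR in a joint fit, was 0.02. For H2-DMb1 the IgG slope was 0.19 and the difference -0.33 (unadjusted p = 0.051 in edgeR's quasi-likelihood test), the smallest p of the 6.

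**Figure D4:**
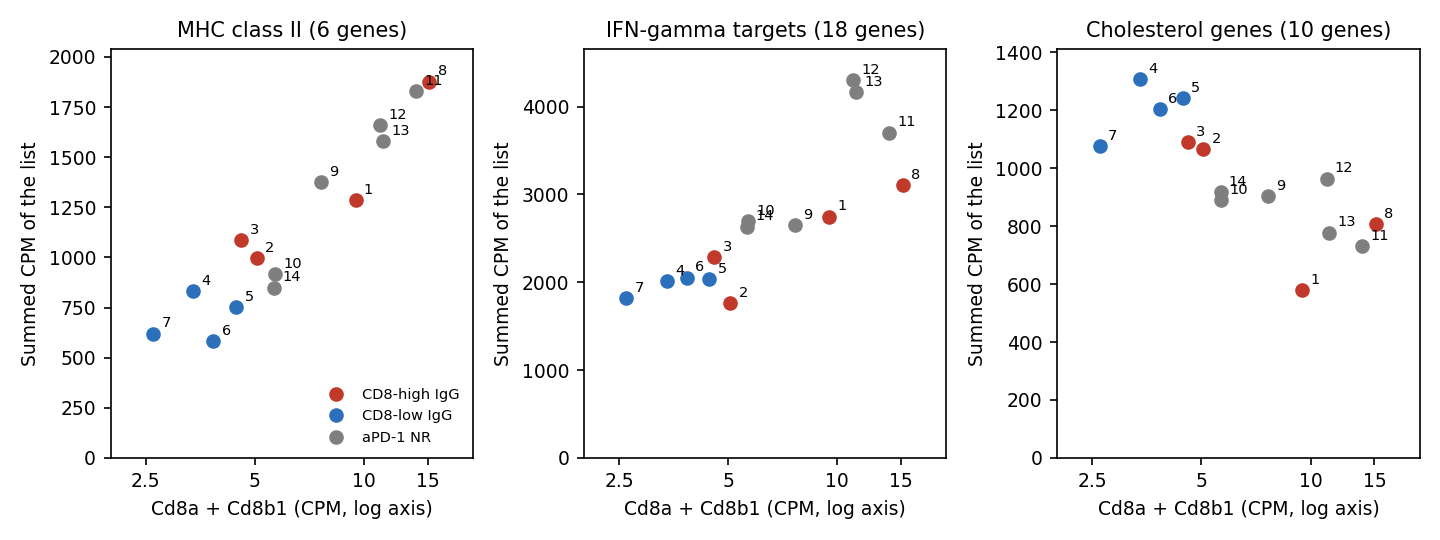
Summed CPM of the 6 MHC class II genes, the 18 interferon gamma target genes and the 10 cholesterol genes that the study names, on axes that start at 0, against the sum of Cd8a and Cd8b1 in CPM of total counts on a log axis, for 8 IgG and 6 aPD-1 NR tumors labelled by replicate. The MHC class II sum spans 582 to 1877 CPM and is ordered much like the CD8 level in both groups, while the cholesterol sum is lowest in replicate 1 at 580.2 CPM and lies between 732 and 964 CPM in the NR tumors.

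Genes of the T cell receptor, CD4 and checkpoint lists measure the same cells as the ranking and are described without a test. Of 15 genes of the T cell receptor complex and its signaling, 13 were higher in the CD8-high tumors, with a median log2 fold change of 0.72. Cd3g, a chain of the CD3 complex, was at 4.96, 2.93, 1.61 and 2.32 CPM in the CD8-high tumors and 1.29, 1.48, 1.44 and 1.43 CPM in the CD8-low tumors and did not overlap. Zap70, the kinase recruited to the activated receptor, was at 1.58, 1.6, 1.34 and 1.39 CPM in the CD8-high tumors and 1.09, 0.752, 0.63 and 0.703 CPM in the CD8-low tumors and did not overlap either. Trbc2, a constant region of the receptor beta chain, was at 2.55, 2.28, 1.23 and 1.05 CPM in the CD8-high tumors and 1.12, 0.778, 0.959 and 0.759 CPM in the CD8-low tumors, and replicate 3 lay below replicate 5. Trbc1 and Trbc2 are near copies between which reads are divided. Cd28 and Cd6 had log2 fold changes of -0.40 and -0.01. Lat, an adaptor of the receptor, had a log2 difference of 0.62 (standard error 0.37).

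The CD4 arm followed less closely. Cd4 was at 2.22, 0.684, 2.13 and 1.27 CPM in the CD8-high tumors and 1.84, 1.5, 1.05 and 1.41 CPM in the CD8-low tumors, with replicate 1 the lowest of all 8 tumors, and its log2 fold change was 0.13 (standard error 0.38). Foxp3, the factor that defines regulatory T cells, was at 0.748, 1.03, 0.984 and 1.05 CPM in the CD8-high tumors and 0.746, 0.882, 0.36 and 0.675 CPM in the CD8-low tumors. Of 9 tested genes of CD4 and regulatory T cells, 7 were higher, with a median of 0.13. Tnfrsf4, a costimulatory receptor, had a log2 fold change of 0.61 and Ccr8, a chemokine receptor of tumor regulatory T cells, -0.51. Among checkpoint receptors 6 of 9 were higher, with a median of 0.18. Pdcd1, which encodes PD-1, was at 4.63, 1.6, 2.79 and 2.99 CPM in the CD8-high tumors and 2.01, 2.02, 1.74 and 1.35 CPM in the CD8-low tumors, and replicate 1, second in CD8 level, lay below 3 of the CD8-low tumors. Lag3 was at 2.55, 3.15, 1.31 and 1.95 CPM in the CD8-high tumors and 1.58, 1.45, 1.62 and 1.29 CPM in the CD8-low tumors. Cd160 had the highest log2 fold change of the list, 1.02, and Btla the lowest, -0.17. Without replicate 8, only 3 of 9 checkpoint receptors were higher and their median was -0.10. In the NR tumors all 15 receptor and signaling genes and all 9 checkpoint receptors had a positive slope, with medians of 0.95 and 0.94.

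Genes of killing were higher in the CD8-high tumors, though few of them separated the groups. All 16 tested genes of the cytotoxic list had a log2 fold change above 0, with a median of 0.59. Of them, 3 had an unadjusted p below 0.05, against 4.05% of all genes, and 2 did not overlap, against 2.58%. These genes are used by CD8 T cells as well as NK cells, so the ranking bears on them too, and the counts are no independent evidence. Tbx21, the T-bet factor of type 1 lymphocytes, was at 0.665, 0.456, 0.301 and 0.636 CPM in the CD8-high tumors and 0.172, 0.182, 0.18 and 0.253 CPM in the CD8-low tumors, a log2 fold change of 1.37 (standard error 0.38). Ctsw, a cathepsin of cytotoxic cells, was at 3.63, 2.93, 2.13 and 2.4 CPM in the CD8-high tumors and 2.12, 1.63, 1.89 and 1.77 CPM in the CD8-low tumors, with replicates 2 and 5 nearly equal. Nkg7, a granule protein, was at 6.84, 4.79, 2.13 and 3.82 CPM in the CD8-high tumors and 2.38, 1.79, 3.06 and 2.25 CPM in the CD8-low tumors, a log2 fold change of 0.89 (standard error 0.34), and replicate 2 fell among the CD8-low values. Ifng was at 1.97, 1.63, 0.629 and 0.449 CPM in the CD8-high tumors and 0.631, 0.57, 0.36 and 0.703 CPM in the CD8-low tumors. Only replicates 8 and 1 were clearly above the CD8-low group for this cytokine. Gzmb was at 24.8, 24.2, 4.62 and 13.9 CPM in the CD8-high tumors and 9.41, 7.23, 19.7 and 6.05 CPM in the CD8-low tumors, with CD8-low replicate 4 above CD8-high replicates 2 and 3. Without replicate 1, 12 of 16 genes of the list were higher, and without replicates 1 and 3, 9 of 16, with a median of 0.31. Reads of Gzmd, Gzme, Gzmf and Gzmg can be divided between these near copies. In the NR tumors all 16 slopes were positive, Nkg7 at 1.04 (standard error 0.19) among them.

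Natural killer cells share many of these genes, and their own receptors were examined beside them. Of 10 tested NK genes 9 were higher, none with an unadjusted p below 0.05, with a median of 0.36. Klrc1, which encodes NKG2A, was at 5.82, 1.82, 2.3 and 3.07 CPM in the CD8-high tumors and 2.21, 1.69, 2.22 and 2.02 CPM in the CD8-low tumors, and replicate 1, second in CD8 level, lay among the CD8-low values. Ncr1, the defining NK receptor, had a log2 fold change of 0.07. Without replicate 8 the NK list had 5 of 10 genes higher and a median of 0.03. The part of NK cells in the cytotoxic values was not tested.

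Interferon gamma target genes were higher together. All 18 had a log2 fold change above 0, with a median of 0.44. Of the 18, 3 had an unadjusted p below 0.05, against 4.05% of all genes, and none separated the groups without overlap. Ido1, which degrades tryptophan, was at 1.72, 1.82, 1.04 and 0.262 CPM in the CD8-high tumors and 0.918, 0.285, 0.33 and 0.225 CPM in the CD8-low tumors, a log2 fold change of 1.46 (standard error 0.63), and CD8-high replicate 3 lay among the lowest. Ubd, an interferon-induced ubiquitin-like protein, was at 18.5, 21.4, 9.05 and 11.5 CPM in the CD8-high tumors and 9.55, 9.39, 9.05 and 11.8 CPM in the CD8-low tumors. Igtp, an immunity-related GTPase, was at 273, 265, 126 and 174 CPM in the CD8-high tumors and 149, 159, 141 and 129 CPM in the CD8-low tumors, with replicate 2 lowest of all 8 tumors. Cxcl9, the T cell chemokine, was at 126, 110.1, 76.3 and 87.1 CPM in the CD8-high tumors and 105, 78.5, 56.3 and 67.5 CPM in the CD8-low tumors and overlapped widely. Replicate 2 was not higher than the CD8-low tumors for this list. Its sum of 1761 CPM was the lowest of the 8, while replicates 8 and 1 were highest at 3104 and 2746 CPM. Leaving out each tumor in turn kept 17 or 18 of the 18 genes higher. In the NR tumors all 18 slopes were positive, with a median of 0.56, and 12 had an unadjusted p below 0.05, against 5.04% of all genes. Gbp2b, a guanylate-binding protein outside the lists that DESeq2 called (adjusted p 0.0126), was at 6.56, 3.23, 1.5 and 2.73 CPM in the CD8-high tumors and 0.975, 0.57, 0.869 and 0.787 CPM in the CD8-low tumors. Every CD8-high tumor exceeded every CD8-low tumor, and the log2 fold change was 2.13 (standard error 0.44).

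Class I presentation and type I interferon genes were higher by smaller amounts. Of 14 class I and peptide loading genes 13 were higher, with a median of 0.31. At an unadjusted p below 0.05 stood 4, against 4.05% of all genes. H2-T23, a nonclassical class I molecule, was at 102, 124, 56.1 and 76.6 CPM in the CD8-high tumors and 57.2, 55.6, 59.9 and 51.4 CPM in the CD8-low tumors, a log2 fold change of 0.68 (standard error 0.22). Tap2, a chain of the peptide transporter, was at 139.7, 277, 116 and 142 CPM in the CD8-high tumors and 116, 109.5, 121 and 85.2 CPM in the CD8-low tumors, and Psmb9, an immunoproteasome subunit, at 83.3, 139, 62.4 and 71.9 CPM in the CD8-high tumors and 67.1, 57.4, 57.6 and 59.9 CPM in the CD8-low tumors. Nlrc5, the class I transactivator, had a log2 difference of 0.55 (standard error 0.22). For each of these 4 genes replicate 1 or replicate 8 was highest and replicate 2 overlapped the CD8-low tumors. Without replicate 1 the median of the list was 0.15. Of 15 type I interferon genes 13 were higher, with a median of 0.27. Ranked by Cd8a alone, which exchanges replicates 3 and 5, 5 of 15 were higher and the median was -0.08, and without replicates 1 and 3, 8 of 15 were higher with a median of 0.06. Oas2, a sensor of double-stranded RNA, was at 84.8, 179.6, 38.9 and 104 CPM in the CD8-high tumors and 38.7, 58.1, 73.6 and 34.5 CPM in the CD8-low tumors, a log2 fold change of 0.99 (standard error 0.42). Its slope in the NR tumors was -0.41 (standard error 0.37), and the list had 11 of 15 positive slopes there.

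Among antigen-presenting cells, macrophage and monocyte genes were mostly lower. Of 16 macrophage and monocyte genes 5 were higher and 11 lower, with a median of -0.09 and none at an unadjusted p below 0.05. Their summed level, which follows the most abundant genes, was 2994 to 3864 CPM in the CD8-high tumors and 2794 to 3290.2 CPM in the CD8-low tumors, with the highest value in replicate 8. Csf1r, the receptor that defines macrophages, had a log2 fold change of -0.03, with 109 to 181 CPM in CD8-high and 134 to 172 CPM in CD8-low tumors. Ccr2, the receptor of recruited monocytes, was at 80.3, 28.6, 66.8 and 38.3 CPM in the CD8-high tumors and 90.3, 104, 49.3 and 109.6 CPM in the CD8-low tumors, a log2 fold change of -0.72 (standard error 0.34). Cx3cr1, the fractalkine receptor, was at 91.8, 121, 71.9 and 84 CPM in the CD8-high tumors and 77, 75.1, 71 and 61.2 CPM in the CD8-low tumors, a log2 fold change of 0.38 (standard error 0.17). In the NR tumors 15 of 16 slopes of this list were positive, with a median of 0.38. The median slope in the IgG tumors was -0.05. None of the 16 differences of slopes between IgG and NR tumors was called, as for all genes. Of the 16, 5 had an unadjusted p below 0.05 for the difference in either direction, against 8.81% of all genes.

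Dendritic cell genes were mixed, and their direction depended on single tumors. Of 13 tested genes 8 were higher, with a median of 0.04, and 3 had an unadjusted p below 0.05, against 4.05% of all genes. Without replicate 1, 13 of 14 tested genes were higher, with a median of 0.21, without replicates 1 and 3 all 14 were, with a median of 0.55, and without replicate 2, 5 of 13 were. Itgax, which encodes CD11c, was at 67.1, 47.1, 60.4 and 62.5 CPM in the CD8-high tumors and 40.8, 34.7, 52 and 31.1 CPM in the CD8-low tumors, a log2 fold change of 0.58 (standard error 0.18), and replicate 1 lay below CD8-low replicate 4. Cadm1 and Xcr1, markers of the cross-presenting subset, had log2 fold changes of 0.55 (standard error 0.21) and 0.94 (standard error 0.37). Clec9a of the same subset had -0.14, as did Flt3, a gene of the list that is not particular to this subset. Xcr1 was at 1.8, 0.95, 0.766 and 1.8 CPM in the CD8-high tumors and 0.746, 0.804, 0.45 and 0.759 CPM in the CD8-low tumors, and CD8-low replicate 6 lay above CD8-high replicate 2. B cell genes were near the limit of detection: 6 of 10 had too few counts to be tested, Ms4a1 was at most 0.899 CPM in any IgG tumor, and the list summed to 3.08 to 5.21 CPM in the CD8-high tumors and 3.33 to 10.2 CPM in the CD8-low tumors. Plasma cell genes were tested for 4 of 9, Ighm, Igkc, Jchain and Sdc1. The list summed to 56.5 to 108 CPM in the CD8-high tumors and 88.1 to 98.9 CPM in the CD8-low tumors. Ighm was at 11.3 to 28.9 CPM and 9.14 to 13.7 CPM in these groups, and Igkc at most 3.88 and 2.31 CPM. The sum was therefore not made up of these immunoglobulin genes alone and is no measure of plasma cells. Whether the class II levels came from more presenting cells or from more RNA per cell was not tested.

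Ligands that restrain T cells were compared with the same split. Of 12 tested inhibitory ligands and related genes 8 were higher, with a median of 0.26. Cd276, which encodes B7-H3, was at 8.28, 4.86, 9.13 and 4.94 CPM in the CD8-high tumors and 4.7, 4.25, 3.93 and 3.49 CPM in the CD8-low tumors, a log2 fold change of 0.74 (standard error 0.25), and did not overlap. Nectin2, a ligand of TIGIT and PVRIG, was at 12.7, 15.9, 14.1 and 13.7 CPM in the CD8-high tumors and 9.98, 9.52, 13.4 and 11.2 CPM in the CD8-low tumors, a log2 fold change of 0.36 (standard error 0.15). Cd274, which encodes PD-L1, had a log2 difference of 0.27 (standard error 0.20). Lgals1, which encodes galectin-1, was at 1935, 2000.1, 2188 and 1852 CPM in the CD8-high tumors and 2166, 2196, 1859 and 2732 CPM in the CD8-low tumors, with replicate 7, lowest in CD8, highest in Lgals1. Its log2 fold change was -0.16 (standard error 0.15). Syk, a kinase of antigen and Fc receptors, was at 28.1, 40.9, 26.4 and 27.7 CPM in the CD8-high tumors and 22.2, 24.4, 26.5 and 17.4 CPM in the CD8-low tumors, a log2 fold change of 0.45 (standard error 0.19), with replicate 1 far above the rest. Irf4, a factor of activated lymphocytes, was at 1.33, 0.38, 2.16 and 0.599 CPM in the CD8-high tumors and 1.2, 1.48, 0.54 and 0.731 CPM in the CD8-low tumors and overlapped throughout. Its slope in the NR tumors was 1.69 (standard error 0.38), called by DESeq2 and not by the edgeR test.

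Type I collagen stood out among stromal genes. Of 13 fibroblast and collagen genes 10 were higher, with a median of 0.24, and ranked by Cd8a alone 6 of 13 were higher, with a median of -0.05. Col1a1 was at 205, 110.4, 276 and 122 CPM in the CD8-high tumors and 76.5, 74.5, 37 and 60.8 CPM in the CD8-low tumors. The group means were 178 ± 77.6 CPM (SD, n = 4) and 62.2 ± 18.2 CPM (SD, n = 4), which is 1.52 (standard error 0.33) as a log2 fold change, with an adjusted p of 0.575 from edgeR's quasi-likelihood test and 0.0126 from DESeq2. Replicates 2 and 8 were highest, and the order did not follow the CD8 order within the CD8-high group. Col1a2, the partner chain, was at 275, 91.8, 395 and 96.4 CPM in the CD8-high tumors and 109, 117, 18.3 and 107 CPM in the CD8-low tumors, a log2 fold change of 1.29 (standard error 0.61), and overlapped because CD8-high replicates 1 and 3 lay below 3 of the CD8-low tumors. Its value in replicate 4 was far below all others. Col3a1 had a log2 fold change of -0.07 and Pdgfra, a fibroblast receptor, -0.28. Pdgfrb, a related receptor of the list, had 0.49 (standard error 0.18) and did not overlap. Of the 13 genes, 2 did not overlap toward higher values, Col1a1 and Pdgfrb, against 2.58% of all genes. Col1a1 and Col1a2 had NR slopes of 1.53 and 1.71 (standard errors 0.47 and 0.57). Tgfb1, the ligand of the TGF-beta pathway, was at 35.5, 39.4, 38.6 and 40.1 CPM in the CD8-high tumors and 34.1, 32.3, 33.9 and 26.5 CPM in the CD8-low tumors and did not overlap, a log2 fold change of 0.28 (standard error 0.12). The list of 10 TGF-beta genes had a median of 0.16 with 7 higher. Among 9 tested endothelial genes 8 were higher, with a median of 0.41 and none at an unadjusted p below 0.05, and leaving out replicate 2 left 3 of 9 higher.

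Cholesterol synthesis genes were lower in the CD8-high tumors. These enzymes build cholesterol from acetyl-CoA under the control of SREBP2, and the study's text names 10 of the genes. The study chose them by comparing spatial data of aPD-1 R and aPD-1 NR tumors. The NR tumors thus took part in that choice and the IgG tumors did not. The list was taken up here with earlier results of these data known, so that its direction is no independent evidence. Of these 10 genes 8 were lower, with a median log2 fold change of -0.50. Of them, 5 had an unadjusted p below 0.05, against 1.39% of all genes, and 3 did not overlap, against 3.75% of all genes. Cyp51, which demethylates lanosterol, was at 132, 76.1, 181 and 156 CPM in the CD8-high tumors and 209, 223, 228 and 212 CPM in the CD8-low tumors, a log2 fold change of -0.68 (standard error 0.23). Fdft1, which makes squalene, was at 42.5, 39.9, 66.4 and 63.1 CPM in the CD8-high tumors and 73.5, 72.6, 82.8 and 76.3 CPM in the CD8-low tumors, a log2 fold change of -0.52 (standard error 0.18). Hmgcs1, an early enzyme of the path, was at 107, 55.4, 146 and 161 CPM in the CD8-high tumors and 181, 169, 221 and 166 CPM in the CD8-low tumors, a log2 fold change of -0.65 (standard error 0.28). For all 3 genes replicate 1 was lowest and replicate 8 next, and replicates 2 and 3 lay between those and the CD8-low tumors. Insig1, which retains SREBP in the endoplasmic reticulum, and Nsdhl, a late enzyme, had log2 fold changes of -0.51 (standard error 0.18) and -0.50 (standard error 0.20).

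A further list held 15 cholesterol genes, of which some may also be among those the study selected. It too was written with earlier results of these data known, so that it is no independent evidence either. Of them 13 were lower, with a median of -0.42. Without overlap were 4, against 3.75% of all genes, and 2 had an unadjusted p below 0.05, against 1.39%. Msmo1, a sterol oxidase, was at 61.5, 29.2, 86.5 and 102 CPM in the CD8-high tumors and 108, 103, 158 and 123 CPM in the CD8-low tumors, a log2 fold change of -0.82 (standard error 0.33). Idi1, the isomerase of the mevalonate path, was at 56.6, 13.2, 73.3 and 71.5 CPM in the CD8-high tumors and 97.7, 97.2, 96.7 and 89.5 CPM in the CD8-low tumors, with no overlap. Pmvk had a log2 difference of -0.57 (standard error 0.25). The 2 lists were lowest in replicate 1, the library with the high mitochondrial share, at sums of 580.2 and 412 CPM. Without replicate 1 their medians were -0.34 and -0.21, with 8 of 10 and 14 of 15 genes lower. In the NR tumors the median slopes were -0.18 and -0.03, with 1 of 10 and 7 of 15 slopes positive and none at an unadjusted p below 0.05. Within the NR tumors the sum of the 10 genes was 903, 890.0, 732, 964, 778 and 918 CPM in replicates 9 to 14, a narrower range than in the IgG tumors. The part of the mitochondrial share in the IgG values was not tested.

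Most proliferation genes were slightly lower, and the direction of hypoxia genes changed when replicate 3 was left out or moved to the other group. Of 14 proliferation genes 12 were lower, with a median of -0.21. Cenpf, a kinetochore protein, was at 169, 117, 176 and 158 CPM in the CD8-high tumors and 194, 187, 186 and 204 CPM in the CD8-low tumors and did not overlap, a log2 fold change of -0.31 (standard error 0.14). Mki67 lay at 366 to 453 CPM in CD8-high and 428 to 507 CPM in CD8-low tumors. Replicate 1 had the lowest sum of the list, 2158 CPM, and without it the median was -0.11. Of the NR slopes of the list 10 of 14 were positive. Of 13 hypoxia and glycolysis genes 7 were higher, with a median of 0.04. Without replicate 3, 3 of 13 were higher, with a median of -0.28, and with the tumors ranked by Cd8a alone, which exchanges replicates 3 and 5, 1 of 13 was, with a median of -0.43.

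**Figure D5:**
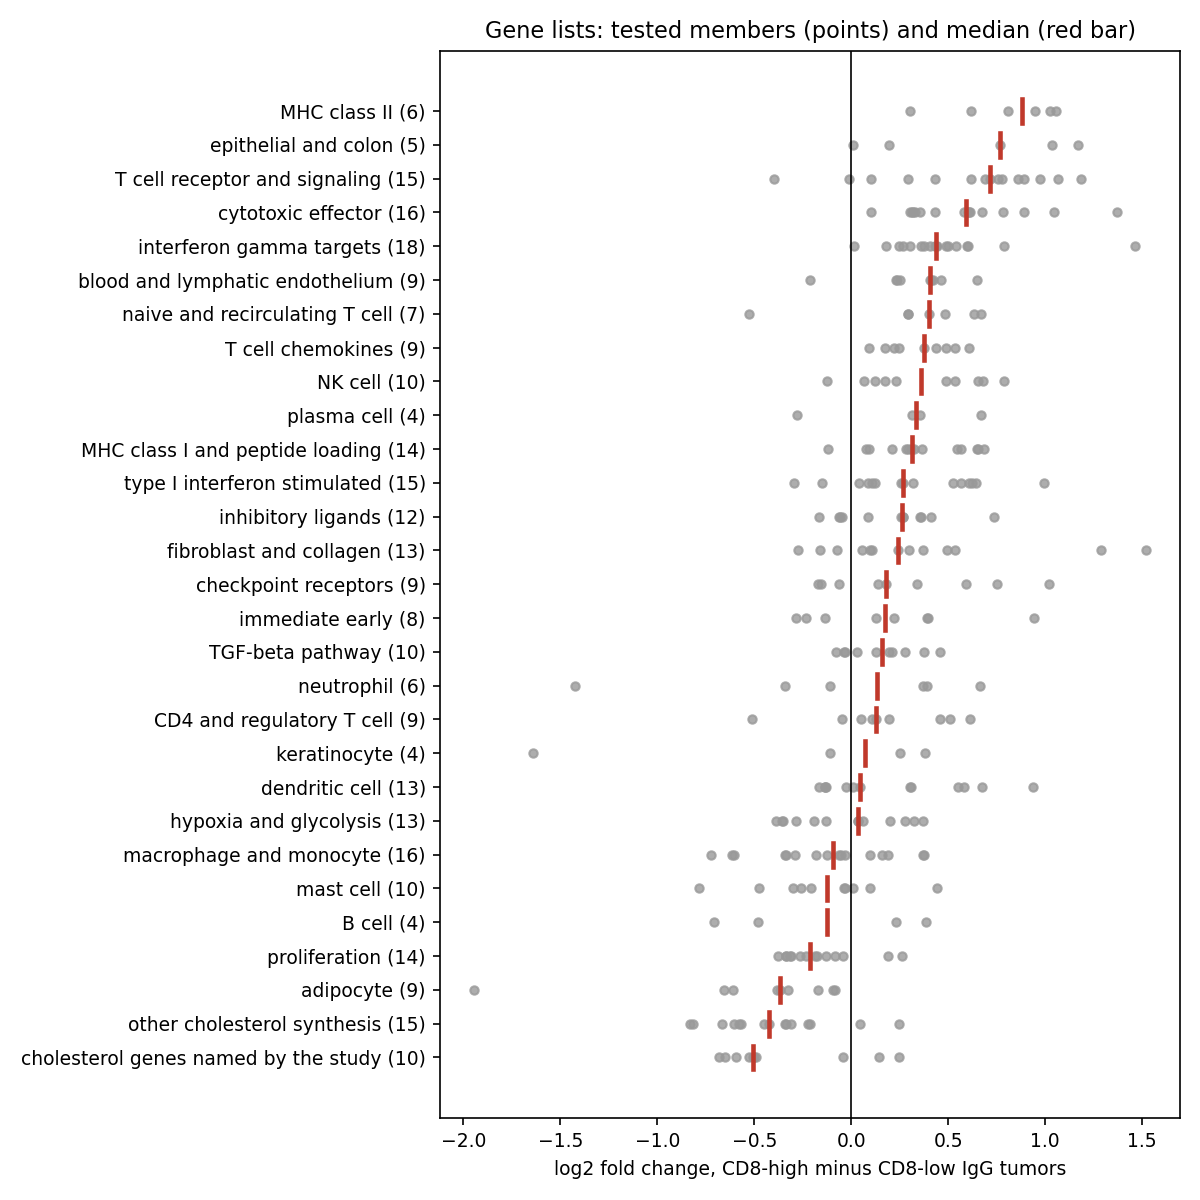
Log2 fold change between CD8-high and CD8-low IgG tumors for the tested members of each gene list with at least 4 tested members, the number tested in brackets, with each member as a point and the median as a red bar; the skeletal muscle list, which rests on 1 tumor, is left out. MHC class II has the highest median at 0.88, and the cholesterol genes that the study names have the lowest at -0.50.

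Genes of neighbouring tissue mostly followed single tumors. All 11 skeletal muscle genes were lower in the CD8-high tumors, with a median of -6.14. Ckm, muscle creatine kinase, was at 0.582, 0.076, 1.7 and 0.936 CPM in the CD8-high tumors and 1.95, 325, 0.72 and 2.59 CPM in the CD8-low tumors. Mb, which encodes myoglobin, was at 0.166, 0.038, 0.191 and 0.299 CPM in the CD8-high tumors and 0.889, 74.5, 0.42 and 1.35 CPM in the CD8-low tumors. Replicate 6 held nearly all of this signal, and without it the median was -1.07. Actn3, Mybpc1, Myh1 and Hspb7, muscle genes among the lowest of all genes in the comparison, were at 177, 79.7, 179 and 18.3 CPM in replicate 6 and at most 2.31, 1.32, 5.22 and 0.86 CPM in the other CD8-low tumors. Myh8, the perinatal myosin, was called lower by DESeq2 (adjusted p 0.00692). It was at 0.0277, 0.038, 0.0547 and 0.0374 CPM in the CD8-high tumors and 1.32, 0.545, 1.23 and 0.309 CPM in the CD8-low tumors, so that replicate 6 did not stand apart, and reads of myosin heavy chain genes can be divided between near copies. Fat cell genes had a median of -0.37, with all 9 lower, none at an unadjusted p below 0.05, and sums of 18.9 to 97.5 CPM in the CD8-high tumors and 22.8 to 171 CPM in the CD8-low tumors. Without replicate 7, a CD8-low tumor, 7 of 9 were higher. Of 10 keratinocyte genes 4 were tested, with a median of 0.07 (-0.18 without replicate 1), and of 7 genes of high endothelial venules and lymph node stroma 1 was tested, Cxcl13, at 0.54. The 5 tested epithelial genes had a median of 0.76, with Krt8 at 0.914, 0.152, 1.37 and 0.0374 CPM in the CD8-high tumors and 0.086, 0.337, 0.21 and 0.591 CPM in the CD8-low tumors. Mast cell genes had a median of -0.12, neutrophil genes 0.13 and immediate early genes 0.17, with 3 of 10, 3 of 6 and 5 of 8 higher. All 3 lists turned with single tumors. Without replicate 1 the mast cell median was 0.23 with 7 of 10 higher and the immediate early median -0.08 with 2 of 8 higher, and ranked by Cd8a alone the neutrophil median was -0.38 with 1 of 6 higher. Naive and recirculating T cell genes had a median of 0.40 with 6 of 7 higher, and T cell chemokines 0.38 with all 9 tested higher.

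The genes of smallest p that did not overlap and had at least 100 counts on average were of several kinds. Toward higher values in CD8-high tumors these were Pltp, Col1a1, H2-Eb1, Adgrg5, Cd74, Nod1, Igfbp5, H2-DMa, Notch4 and Tlr12, all at an adjusted p of 0.575 in edgeR's quasi-likelihood test and hence not called. Pltp, which transfers phospholipids between lipoproteins and lies at chr2:164839518-164857711, was at 21.7, 20.2, 26 and 22.6 CPM in the CD8-high tumors and 13.4, 14.6, 16.1 and 11.1 CPM in the CD8-low tumors, a log2 fold change of 0.71 (standard error 0.15). Adgrg5, an adhesion receptor coupled to G proteins, was at 7.04, 14.1, 5.77 and 6.14 CPM in the CD8-high tumors and 2.52, 2.8, 4.26 and 2.59 CPM in the CD8-low tumors, with replicate 1 far above the other CD8-high tumors. Nod1, a cytosolic sensor of bacterial cell wall, was at 10.7, 13.2, 10.3 and 9.13 CPM in the CD8-high tumors and 6.22, 6.85, 7.79 and 6.27 CPM in the CD8-low tumors. Notch4, a Notch receptor of endothelium, and Tlr12, a Toll-like receptor, had log2 fold changes of 0.65 (standard error 0.16) and 1.03 (standard error 0.26). Igfbp5, which binds insulin-like growth factors, was at 9.56, 13.4, 11.4 and 19.1 CPM in the CD8-high tumors and 7.83, 6.53, 7.97 and 5.51 CPM in the CD8-low tumors, highest in replicate 3.

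Toward lower values the genes were Sema3c, Elavl2, Gas1, Fgf7 and Gm15459 beside the muscle genes Hspb7, Mb, Actn3, Mybpc1 and Myh1. Sema3c, a secreted guidance protein at chr5:17574281-17730268, was at 75.5, 42.6, 63.2 and 70.3 CPM in the CD8-high tumors and 97.3, 78, 114 and 132 CPM in the CD8-low tumors, a log2 fold change of -0.75 (standard error 0.21). Replicate 7, lowest in CD8, was highest in Sema3c, and the slope in the NR tumors was -0.13 (standard error 0.29). Elavl2, an RNA-binding protein, was at 27.6, 19, 27.5 and 27.6 CPM in the CD8-high tumors and 34.4, 34.4, 36.5 and 36.9 CPM in the CD8-low tumors, a log2 fold change of -0.48 (standard error 0.14). Gas1, a membrane protein linked to growth arrest, and Fgf7, a growth factor for epithelium, had log2 fold changes of -0.52 (standard error 0.16) and -0.53 (standard error 0.17). Replicate 1 was lowest for Sema3c, Elavl2, Gas1 and Fgf7. Gm15459 is annotated as a processed pseudogene, so that its reads can come from the parent gene, and had a log2 difference of -0.66 (standard error 0.22).

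Higher genes of the IgG split were not higher as a rule with CD8 in the NR tumors. The 2 sets of tumors share no sample. Of 15534 genes tested in both, 631 were higher in CD8-high IgG tumors at an unadjusted p below 0.05, and 225 of them (35.7%) had a positive slope in the NR tumors, where 51.3% of all genes did. A positive slope at an unadjusted p below 0.05 was found for 52 of the 631 (8.24%), where 5.01% of all genes did, and these 52 were 6.68% of the 779 genes with such a slope. The 52 include all 6 MHC class II genes, Col1a1, Pltp, Igfbp5, Itgax, H2-T23, Tgfb1, Ido1, Ubd and Igtp. Of 218 genes lower in CD8-high IgG tumors 134 (61.5%) had a positive slope, and none a negative slope at an unadjusted p below 0.05. For Adgrg5, Nod1, Notch4 and Tlr12 the slopes were 0.19, 0.26, 0.25 and 0.30, and none had an unadjusted p below 0.05. The 2 aPD-1 R tumors, far higher in CD8, had H2-Eb1 at 664 and 433 CPM, above all IgG tumors.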

How the data were processed

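Bulk RNA-seq was made from 1 tumor per mouse, with poly(A) selection, a strand-specific kit and paired reads of 150 bases. The authors aligned reads with STAR 2.6 to GRCm38 with an Ensembl annotation, and they used RSEM 1.3.0 for the expected counts of each gene, which divides reads between similar genes. The deposited table of expected counts held 53557 entries, of which 92 name spike-ins, with at most 185 counts in a tumor, and were left out. Of the values 7.83% were not whole, and all were rounded to whole numbers. Symbols and coordinates came from GENCODE for 53274 of 53465 genes. The study's spatial and staining data were not analysed here. Groups came from the labels, except for the split of IgG tumors by CD8 level.

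The members and the 31 gene lists, of 346 genes, were chosen with earlier results of these data known. Counts were tested in R 4.3.3 with edgeR 4.0.16 and limma 3.58.1, after edgeR's filter on low counts and TMM scaling, with robust dispersions and the quasi-likelihood test with Benjamini-Hochberg adjustment over all genes tested. Fits were made over 8 IgG tumors (4 against 4), over 6 aPD-1 NR tumors (slope on the log2 CD8 level) and over both (difference of slopes). Genes of the T cell receptor, CD4 and checkpoint lists measure the same cells as the ranking and got no test. CPM values per gene and list use library sizes scaled by TMM over all 16 tumors, and the CD8 level uses total counts. Named genes were the 10 of smallest p in each direction with no overlap and a mean of at least 100 counts, members of the lists by p or as defining markers, Cd4, Syk, Lat, Irf4 and Lgals1, and, added after their values were seen, genes that DESeq2 called. A few genes under this rule are not reported here. DESeq2 1.42.0, another scaling, other filters, other group sizes and rankings, a continuous CD8 level and the removal of single tumors were alternatives, and 3 further removals were added after the data were seen. On simulated counts with 200 changed genes, the NR slope fit recovered 44% and 97% of genes with slopes of 1 and 2 on the log2 scale, and the difference of slopes 42% and 81%. No pair of tumors was a copy, with a chi-square per degree of freedom of at least 16.5 over 120 pairs. Single library measures were compared by exact permutation tests. Total counts were 26603449 to 39948866 per tumor, and the p-values measure the spread between these tumors. Python 3.11.15, numpy 2.4.6, pandas 2.3.3, scipy 1.17.1 and matplotlib 3.10.9 were used. 0 columns belonged to other samples.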

Additional observations from a re-analysis of the deposited data

Results flagged for a closer look

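In groups of 4 or 6 tumors, 13 of 62 groups tested held 1 tumor far from the others, where chance gives about 1 in 20, and genes that share a tumor are not independent. Replicate 1, CD8-high, accounted for 6 of them. Its mitochondrial share was 7.6% against 2.66 to 3.21% in the other CD8-high tumors. It was highest for Adgrg5 at 14.1 CPM (others at most 7.04), Notch4 at 20.0 CPM (at most 15.8) and Syk at 40.9 CPM (at most 28.1), and lowest for Elavl2 at 19 CPM (at least 27.5) and Fgf7 at 42.8 CPM (at least 72.7). Replicate 6, CD8-low, accounted for a further 5, the muscle genes Hspb7 at 18.3 CPM, Mb at 74.5 CPM, Actn3 at 177 CPM, Mybpc1 at 79.7 CPM and Myh1 at 179 CPM. Hspb7 also stood apart in CD8-high replicate 2 at 0.437 CPM. Adgrg5 did so in CD8-low replicate 4 at 4.26 CPM.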

How the results depend on the processing

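The count of genes called between CD8-high and CD8-low IgG tumors was 0 under every alternative run except DESeq2, which called 5, and the removal of replicates 1, 3 and 4, chosen after the data were seen, which gave 3 (Col1a1, Col1a2 and Gm26735). Genes at an unadjusted p below 0.05 numbered 857, and between 388 without replicate 7 and 1363 without replicate 2, with 1474 of 28016 genes when no filter was applied, 1530 with all 16 tumors in the fit and 514 with the ranking by Cd8a alone, which puts replicate 5 in place of replicate 3. For the CD8 slope in the NR tumors DESeq2 called 98 genes in place of 0, and with 1 tumor left out the count lay between 0 and 542, the latter without replicate 10. For the difference of slopes it lay between 0 and 1, the 1 gene being Alb, without replicate 10. The number of genes with at least 10 counts differed by -21.25 between CD8-high and CD8-low tumors, and by -148.83 to 87.5 with 1 tumor left out. In these changes the cause was not tested. Of 83 named genes under 19 alternatives each, 1573 of 1577 differences kept their direction. Many of these genes were chosen for no overlap or a small p in the same tumors, so this count is no measure of stability. The comparison of the top 3 with the bottom 3 tumors and the removal of replicates 3 and 5 were the same fit. With 1 tumor left out Cd4 lay between -0.078 without replicate 8 and 0.37 without replicate 1, with -0.054 without replicate 2, and Irf4 between -0.35 without replicate 2 and 0.47 without replicate 1, with -0.015 without replicate 4. No paired analysis was possible because no replicate number is shared between groups. The depth limits genes at or below 1 CPM, among them several T cell, B cell and epithelial genes.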

Other observations

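Some of the 52 genes that were higher in CD8-high IgG tumors and had a positive CD8 slope in the NR tumors, both at an unadjusted p below 0.05, lie outside the gene lists. They were chosen here after their values were seen, and none was called in edgeR's quasi-likelihood test. Several encode secreted matrix proteins. Bgn, which encodes biglycan, was at 117, 54.3, 125 and 108 CPM in the CD8-high tumors and 52.4, 65.3, 43.8 and 40.3 CPM in the CD8-low tumors, so that replicate 1 overlapped the CD8-low tumors, a log2 fold change of 1.00 (standard error 0.26), and its NR slope was 1.18 (standard error 0.35). The fibulin gene Fbln2 had a log2 difference of 0.82 (standard error 0.36) and an NR slope of 1.55, and Loxl1, which cross-links elastin, 0.78 (standard error 0.21) and 0.72. Of lymphocyte genes, Cxcr6, a chemokine receptor of tissue T cells, was at 4.29, 1.44, 1.2 and 1.91 CPM in the CD8-high tumors and 1.12, 0.622, 1.02 and 1.41 CPM in the CD8-low tumors, with a slope of 0.73. Ltb, which encodes lymphotoxin beta, was at 3.79, 2.36, 2.21 and 2.36 CPM in the CD8-high tumors and 1.58, 1.92, 1.65 and 1.6 CPM in the CD8-low tumors, with a slope of 1.08. Gbp10, a further guanylate-binding protein, was at 23.2, 23.1, 6.89 and 12 CPM in the CD8-high tumors and 7.63, 8.89, 7.58 and 7.31 CPM in the CD8-low tumors, with a slope of 0.80.

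Fat cell genes differed in the NR tumors. Of 8 tested, 7 had a positive slope, with a median of 2.83, and their summed level was 25.4, 24.8, 74, 45.4, 88 and 23.7 CPM in replicates 9 to 14. In the 2 aPD-1 R tumors it was 2109 and 405 CPM. What sets these levels was not tested.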
